A study of Mus musculus with 12 samples.

Results

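The genes described here are those of hepatic fatty acid synthesis and of the SREBP-1 pathway that controls it: Srebf1, Nr1h3, Fasn, Acaca, Acacb, Acly, Scd1, Elovl6, Me1 and Acss2. They were chosen by gene symbol in the annotation of the array's probe sets, and 9 of the 10 had a probe set, among 19505 symbols measured in all. Srebf1 itself had no probe set of that symbol and is not analysed here, so the level of the SREBP-1 transcript is unknown in what follows. Each of the 9 was read by 1 probe set. Liver RNA came from 6 adult male C57BL/6J mice born to UCP1-KO dams (arrays 7 to 12) and from 6 born to WT dams (arrays 1 to 6), with 1 expression array per mouse. UCP1 is the uncoupling protein of brown fat mitochondria, and UCP1-KO dams lack it. All 12 sons were heterozygous (HET) for the knockout. Both kinds of dam had been bred to HET sires, so in these HET sons the null allele came from the mother in one group and from the father in the other. The dam's genotype and the parent of origin of that allele cannot be told apart. The mice were 4 to 5 months old, were housed at 23 °C and ate standard chow. The comparison asks which liver transcripts differ with the genotype of the dam. The labels do not name dams or litters, so littermates may be among the mice, and every p-value given here rests on the spread from mouse to mouse.

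Hepatocytes build fatty acids from cytosolic acetyl-CoA. ATP citrate lyase and acetyl-CoA synthetase supply it, acetyl-CoA carboxylase turns it into malonyl-CoA, fatty acid synthase assembles palmitate with NADPH from malic enzyme and the pentose phosphate pathway, and ELOVL6 and SCD1 elongate and desaturate the product. In liver, insulin raises transcription of these enzymes through SREBP-1c, whose own gene is a target of the oxysterol receptor LXR alpha, encoded by Nr1h3, and carbohydrate acts beside it through ChREBP.

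The upstream sequences of Fasn, Acss2 and Acly are shown because these genes include the 2 members with the largest differences in mean and appear among the correlated pairs described below. RefSeq's promoter table (build GRCm38.p6) held 10 start sites for 8 of the 9 measured genes. The 250 bases before each start were searched on both strands for the sterol regulatory element letters TCACNCCAC, the E-box CACGTG, the NF-Y box CCAAT and the Sp1 box GGGCGG. Matches are in capitals (those on the other strand read CCGCCC and ATTGG), each sequence runs 5′ to 3′ on the strand of its gene, and the coordinates are of that build.
Fasn, chr11:120824548-120824797, minus strand: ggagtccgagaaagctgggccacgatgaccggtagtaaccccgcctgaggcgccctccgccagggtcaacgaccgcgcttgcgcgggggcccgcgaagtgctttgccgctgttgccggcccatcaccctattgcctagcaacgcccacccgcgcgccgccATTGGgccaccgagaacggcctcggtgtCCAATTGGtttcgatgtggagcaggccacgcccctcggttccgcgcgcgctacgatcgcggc
Acss2, chr2:155517793-155518042, plus strand: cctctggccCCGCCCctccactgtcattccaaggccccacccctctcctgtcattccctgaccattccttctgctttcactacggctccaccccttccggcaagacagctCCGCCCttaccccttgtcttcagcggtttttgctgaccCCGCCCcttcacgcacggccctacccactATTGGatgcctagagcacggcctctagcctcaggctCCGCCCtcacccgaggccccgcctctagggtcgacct
Acly, chr11:100528001-100528250, minus strand: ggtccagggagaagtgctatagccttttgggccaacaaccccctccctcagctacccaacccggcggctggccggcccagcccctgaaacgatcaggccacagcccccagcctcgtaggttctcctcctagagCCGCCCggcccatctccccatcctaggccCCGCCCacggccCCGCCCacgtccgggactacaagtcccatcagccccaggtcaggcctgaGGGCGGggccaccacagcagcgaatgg
The Fasn window held 3 CCAAT matches, beginning 90, 62 and 59 bases before the start, of which the last pair overlap by 2 bases. The Acss2 window held 1 CCAAT match at 73 bases and 4 GGGCGG matches, and the Acly window held 4 GGGCGG matches and no CCAAT. The letters TCACNCCAC and CACGTG were in none of the 13 windows of the named genes, those of Srebf1 included. They stood in 1.05% and 6.02% of all 32851 windows in the table. At such shares few or no matches are likely in 13 windows, so their absence says little. CCAAT stood in 33.8% and GGGCGG in 32.7% of all windows. A match is a description of the sequence and not a binding site.

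The deposited values are log2 signals that the authors normalized across arrays by RMA, and the number of arrays limits the precision. The lowest value of any of the 9 genes on any array was 6.65, for Acacb, against background controls averaging 5.02 and 5.00 in offspring of UCP1-KO and WT dams. The arrays of the UCP1-KO-dam group had negative control medians of 5.96 to 6.36 and those of the WT-dam group 6.14 to 6.62 (exact two-sided permutation p = 0.119), with WT-dam arrays 3 to 6 the brightest. On the first principal component the values 37.5, 26.3 and 34.2 of UCP1-KO-dam arrays 8, 10 and 11 were set off from the rest, and that component averaged 16.3 in offspring of UCP1-KO dams and -16.3 in offspring of WT dams (exact two-sided permutation p = 0.0065). Hepatocyte genes were bright on all arrays: the mean log2 signal of 7 of 7 listed markers was 18.6 to 18.7 in offspring of UCP1-KO dams and 18.3 to 18.6 in offspring of WT dams. Adipose tissue also makes fatty acids, and its defining genes Adipoq, Plin1 and Lep averaged under the level of the background controls whichever the dam. The mean over the 6 of 7 adipocyte genes measured was 7.28 to 7.49 in offspring of UCP1-KO dams and 7.14 to 7.62 in offspring of WT dams, a mean that is carried by Car3 and Fabp4. In whole liver RNA, fewer cells of a type and less RNA per cell cannot be told apart.

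No gene of fatty acid synthesis passed the test between offspring of UCP1-KO and WT dams. In the limma fit over 22206 probe sets, 0 of the 9 genes had a Benjamini-Hochberg adjusted p under 0.05 (adjusted p = 0.232 to 0.953), against 0.0360% of all probe sets. At an unadjusted p under 0.05 there was 1 lower gene, Nr1h3, and 0 higher, where 6.00% and 7.08% of all probe sets were so. The mean was lower in offspring of UCP1-KO dams for 8 of the 9 genes, Scd1 being the exception, while 43.2% of all probe sets had a difference below 0. Among the 8129 probe sets at least as bright as the dimmest of the 9, that share was 50.7%. The median log2 difference of the 9 genes was -0.25, beside 0.03 over all probe sets. The groups overlapped for all 9 genes, and 1.05% of all probe sets had groups that did not overlap. The median difference depended on single mice: it was -0.41 when WT-dam array 2 was left out, -0.15 when WT-dam array 5 was, and -0.38 when UCP1-KO-dam array 11 was. With WT-dam arrays 1 and 2 as the only arrays of their group it was -0.03, and 6 genes lay below 0.

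**Figure D1:**
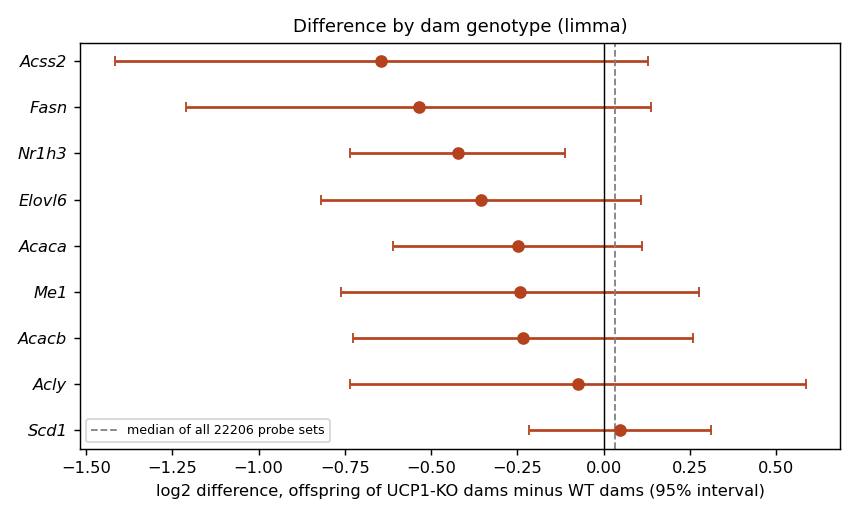
Log2 difference of each gene, as the UCP1-KO-dam mean minus the WT-dam mean, with its 95% interval from the limma fit (6 arrays per group). The intervals of 8 genes include 0, that of Nr1h3 runs from -0.74 to -0.11, and the dashed line marks the median of all probe sets at 0.03.

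Nr1h3, the gene for LXR alpha, had the smallest p of the 9 genes. The log2 signal of Nr1h3 was 11.75 at the lowest, 12.16 at the median and 12.62 at the highest in offspring of UCP1-KO dams, against 12.45, 12.64 and 12.73 in offspring of WT dams. On 4 of the 6 UCP1-KO-dam arrays it lay below every WT-dam array, with arrays 7 and 8 lowest at 11.92 and 11.75, and arrays 9 and 10 lay inside the WT-dam range. The mean was 12.18 ± 0.33 in offspring of UCP1-KO dams and 12.60 ± 0.12 in offspring of WT dams (SD, n = 6 each). The log2 difference was -0.42, a fold of 0.746 (95% interval 0.600 to 0.926, limma adjusted p = 0.232). The difference was -0.51 to -0.34 over the 22 alternative settings, and its adjusted p was 0.160 to 0.718 over them. Settings that altered only the other probe sets tested or the variance estimate could not move the difference. The difference was -0.49 without WT-dam arrays 3 to 6.

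The enzymes that supply acetyl-CoA and NADPH did not share one pattern. Acss2, the cytosolic acetyl-CoA synthetase that activates acetate, had the largest difference in mean of the 9 genes and also the widest spread. Its log2 signal was 10.99, 12.27 and 13.80 (lowest, median, highest) in offspring of UCP1-KO dams, against 12.10, 12.81 and 13.51 in offspring of WT dams. UCP1-KO-dam arrays 8, 9 and 10 lay below all WT-dam arrays, and array 11 lay above all of them. The log2 difference was -0.65 (95% interval -1.42 to 0.13, limma adjusted p = 0.470), and it was -0.40 without UCP1-KO-dam array 8.

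Acly, ATP citrate lyase, which cuts exported citrate to acetyl-CoA, read 13.53, 14.72 and 16.11 in offspring of UCP1-KO dams, against 14.31, 14.80 and 15.47 in offspring of WT dams. The medians were close, while the UCP1-KO-dam arrays spread over 2.58 log2 units and the WT-dam arrays over 1.16, with UCP1-KO-dam array 9 the lowest and array 11 the highest of the 12. The log2 difference was -0.07 (95% interval -0.73 to 0.59, limma adjusted p = 0.953), and its sign turned with single arrays, for example to 0.16 without UCP1-KO-dam array 9. It was -0.35 when UCP1-KO-dam array 11 was left out, and -0.60 when arrays 8 and 10 were dropped with it.

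Me1, the cytosolic malic enzyme that yields NADPH, read 13.52, 13.93 and 14.47 in offspring of UCP1-KO dams, against 13.38, 14.06 and 14.97 in offspring of WT dams. Within the UCP1-KO-dam group, 3 arrays were low (8, 10 and 11, at 13.52, 13.52 and 13.62) and 3 were high (7, 9 and 12, at 14.35, 14.47 and 14.24). The low ones are the 3 arrays that stood apart on the first principal component. The log2 difference was -0.24 (95% interval -0.76 to 0.28, limma adjusted p = 0.718), and 0.16 without those 3 arrays. Of single arrays, WT-dam array 1 left out gave -0.09, WT-dam array 5 gave -0.13, UCP1-KO-dam arrays 8 and 10 each gave -0.16, and WT-dam array 2 gave -0.41.

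Acaca and Acacb encode the acetyl-CoA carboxylases, the cytosolic form that feeds synthesis and the form at the outer mitochondrial membrane whose malonyl-CoA restrains fatty acid oxidation. Acaca read 10.64, 10.84 and 10.94 in offspring of UCP1-KO dams, against 10.34, 11.11 and 11.56 in offspring of WT dams. All 6 UCP1-KO-dam arrays lay within the WT-dam range and below the WT-dam median. Their SD was 0.12, where that of the WT-dam arrays was 0.43, and that difference in spread was not tested. The log2 difference of Acaca was -0.25 (95% interval -0.61 to 0.11, limma adjusted p = 0.561), and 0.21 without WT-dam arrays 3 to 6. Leaving out WT-dam array 5 gave -0.15 and leaving out WT-dam array 2 gave -0.39. With the negative control median as a covariate it was -0.11.

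Acacb, the dimmest of the 9 genes, read 6.65, 7.61 and 8.26 in offspring of UCP1-KO dams, against 7.26, 7.77 and 8.39 in offspring of WT dams. UCP1-KO-dam arrays 9 and 10 lay below the WT-dam range. The log2 difference was -0.23 (95% interval -0.73 to 0.26, limma adjusted p = 0.713), and -0.05 without UCP1-KO-dam array 9. Dropping WT-dam array 5 gave -0.11, and dropping UCP1-KO-dam array 11 gave -0.38. As the dimmest gene, Acacb lay nearest the negative control medians, which averaged 6.21 in the UCP1-KO-dam group and 6.39 in the WT-dam group. With the negative control median as a covariate in the fit, its difference was -0.08.

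Fasn, the multifunctional synthase that makes palmitate and whose upstream sequence is shown above, read 13.06, 14.02 and 14.59 in offspring of UCP1-KO dams, against 13.10, 14.39 and 15.64 in offspring of WT dams. UCP1-KO-dam arrays 8 and 12 and WT-dam array 2 were low, at 13.06, 13.36 and 13.10, and WT-dam array 5 was the highest of the 12. The mean was 13.86 ± 0.56 in offspring of UCP1-KO dams and 14.40 ± 0.82 in offspring of WT dams (SD, n = 6 each), and the log2 difference was -0.54, with a 95% interval of -1.21 to 0.14 (limma adjusted p = 0.492). The difference was -0.29 when WT-dam array 5 was left out and 0.20 when WT-dam arrays 3 to 6 were. With the negative control median as a covariate it was -0.34.

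Of the genes that modify the product, Elovl6, which elongates palmitate to stearate, read 13.13, 13.99 and 14.41 in offspring of UCP1-KO dams, against 13.61, 14.29 and 14.83 in offspring of WT dams. Arrays 7 and 10 of the UCP1-KO-dam group (13.59 and 13.13) were under the WT-dam range. Its log2 difference was -0.36 (95% interval -0.82 to 0.11, limma adjusted p = 0.512), and it was -0.20 without UCP1-KO-dam array 10. Dropping WT-dam arrays 3 to 6 gave -0.10. Scd1, the desaturase that makes oleate, is among the brightest transcripts of these livers, above 99.8% of all probe sets. It read 18.69, 18.84 and 19.12 in offspring of UCP1-KO dams, against 18.54, 18.85 and 19.02 in offspring of WT dams. The Scd1 groups coincided over most of their range, and the log2 difference was 0.05 (95% interval -0.22 to 0.31, limma adjusted p = 0.911). The intervals set how large an undetected change in array signal could be. Downward they reached -1.21 for Fasn and -1.42 for Acss2, while for the other 7 genes they ended at -0.82 or nearer to 0. Upward they reached 0.59 for Acly and 0.31 for Scd1, and ended lower for the rest. Whether the signal of Scd1, so near the top of the array's range, understates a change in its transcript was not tested.

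**Figure D2:**
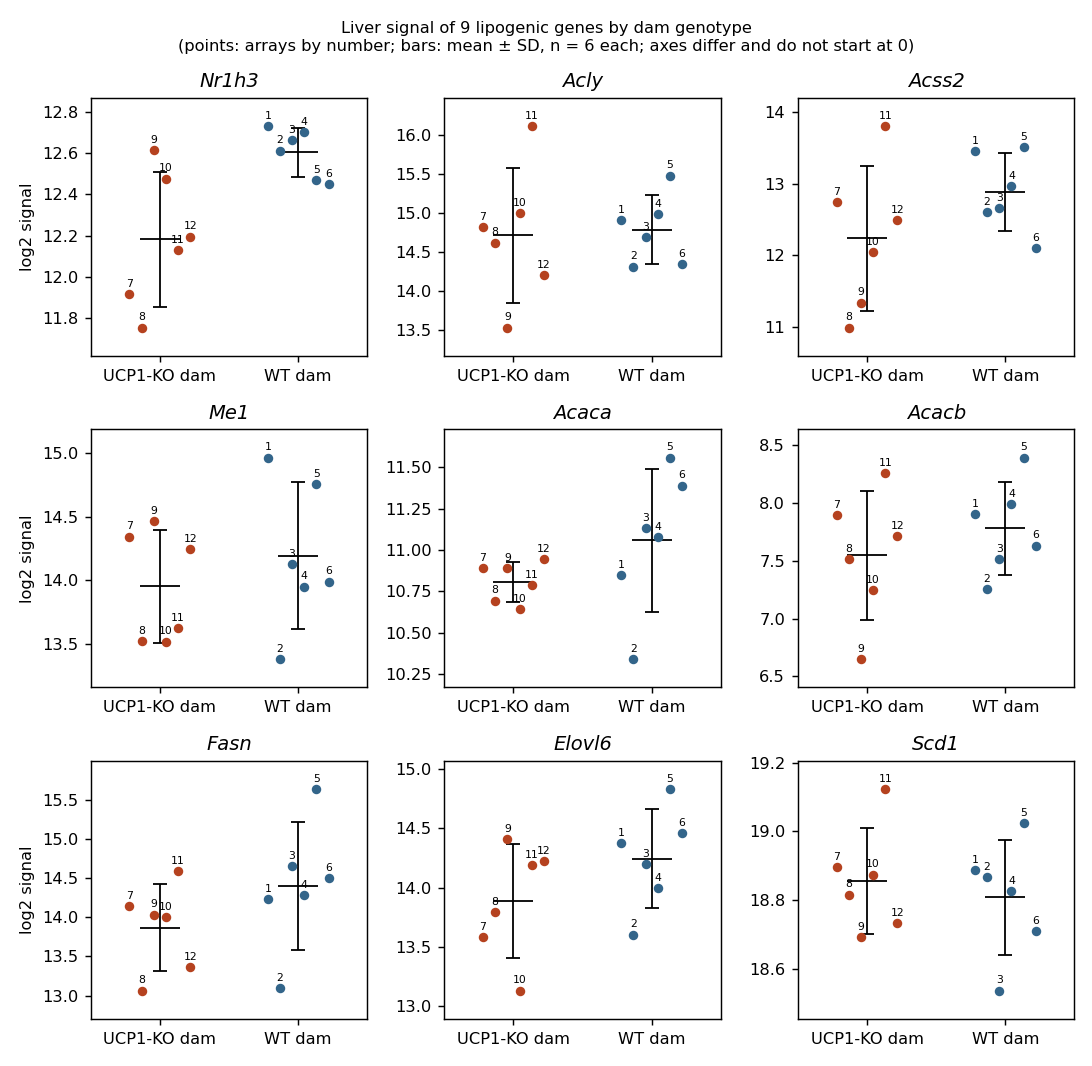
Log2 signal of the 9 genes on each array, offspring of UCP1-KO dams left and offspring of WT dams right, with array numbers, mean and SD (n = 6 each). The groups overlap in every panel; in that of Nr1h3, 4 of the 6 UCP1-KO-dam arrays lie below all WT-dam arrays.

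Set side by side, the values ranged widely from mouse to mouse in both groups. WT-dam array 5 lay above the mean of the 12 arrays for all 9 genes and had the highest value of Fasn, Acaca, Acacb and Elovl6. UCP1-KO-dam array 8 lay below the mean for all 9 genes and had the lowest value of Nr1h3, Fasn and Acss2. UCP1-KO-dam array 11 had the highest value of Acly, Scd1 and Acss2, while 3 of its 9 genes lay below the mean. UCP1-KO-dam array 9 had the lowest value of Acacb and Acly but lay above the mean for Nr1h3, Me1 and Elovl6. Averaged over the 9 genes, the deviation from the mean was -0.52 to 0.36 in offspring of UCP1-KO dams (arrays 8 and 11) and -0.37 to 0.69 in offspring of WT dams (arrays 2 and 5).

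**Figure D3:**
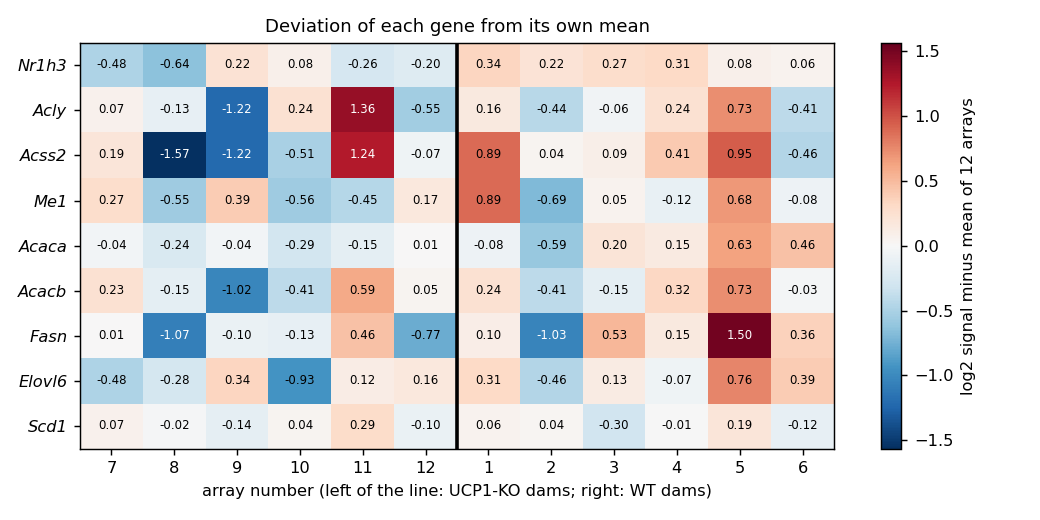
Log2 signal of each gene on each array minus the gene's mean over the 12 arrays (UCP1-KO dams left of the line, WT dams right of it). Array 5 is above the mean in every row and array 8 below it in every row, and arrays 9 and 11 are opposite in Acly, Acss2 and Acacb.

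Across the 12 livers several pairs of these genes varied together. Of 36 pairs tested, 29 had a Pearson's r above 0, 6 had a permutation p that passed Benjamini-Hochberg adjustment over the 36 pairs, and 1 of these also passed by Spearman's rho. That pair was Acacb and Acss2, with r = 0.78 (permutation p = 0.0028, adjusted p = 0.0365) and rho = 0.83 (permutation p = 0.0012, adjusted p = 0.0432). Its r was 0.79 within offspring of UCP1-KO dams and 0.74 within offspring of WT dams, and 0.68 without UCP1-KO-dam array 9 and WT-dam array 5, the 2 farthest from the Acacb median.

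Like that pair, the other 5 pairs that passed by Pearson's r had a lower r without the 2 arrays farthest from the median of their first-named gene. Dropping such arrays narrows the range, which by itself tends to lower r, so the drop is a description and no test. Acacb and Acly had r = 0.81 (permutation p = 0.0019, adjusted p = 0.0365; rho = 0.64, permutation p = 0.0278), with 0.80 within offspring of UCP1-KO dams, 0.93 within offspring of WT dams and 0.64 without the same 2 arrays. Acly and Scd1 had r = 0.75 (permutation p = 0.0065, adjusted p = 0.0466; rho = 0.76, permutation p = 0.0059), and 0.58 without UCP1-KO-dam arrays 9 and 11. Acly and Acss2 had r = 0.72 (permutation p = 0.0082, adjusted p = 0.0494; rho = 0.69, permutation p = 0.0170), which became 0.48 without those arrays. Fasn and Acaca had r = 0.79 (permutation p = 0.0030, adjusted p = 0.0365; rho = 0.71, permutation p = 0.0113), yet r was 0.06 within offspring of UCP1-KO dams and 0.93 within offspring of WT dams, and 0.65 without UCP1-KO-dam array 8 and WT-dam array 5. That gap between the groups was not tested, and Acaca spanned 0.30 log2 units in the UCP1-KO-dam group, against 1.22 in the WT-dam group. Acaca and Elovl6 had r = 0.74 (permutation p = 0.0064, adjusted p = 0.0466; rho = 0.68, permutation p = 0.0189), with 0.67 within offspring of UCP1-KO dams, 0.87 within offspring of WT dams and 0.59 without WT-dam arrays 2 and 5. Me1 passed with none of the genes, its highest r being 0.67 with Elovl6 (permutation adjusted p = 0.0881). Fasn had r of 0.58 with Elovl6, 0.58 with Acss2, 0.54 with Acacb, 0.52 with Acly and 0.52 with Me1, and none of these passed (permutation adjusted p = 0.160 to 0.201). With Scd1 its r was lower, at 0.24 (permutation adjusted p = 0.614). Within offspring of UCP1-KO dams Fasn had r of 0.70 with Acss2, 0.64 with Scd1 and 0.51 with Acly, beside 0.02 with Elovl6 and 0.08 with Me1. Within offspring of WT dams Fasn had 0.41 with Acss2, 0.14 with Scd1 and 0.76 with Acly, beside 0.92 with Elovl6 and 0.68 with Me1. The adjusted p of rho for the 5 pairs that passed by Pearson's r alone was 0.0948 to 0.0999. Nr1h3 had r of -0.28 to 0.32 with the 8 enzymes, and 0 of those 8 pairs passed (permutation adjusted p = 0.600 to 0.739).

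**Figure D4:**
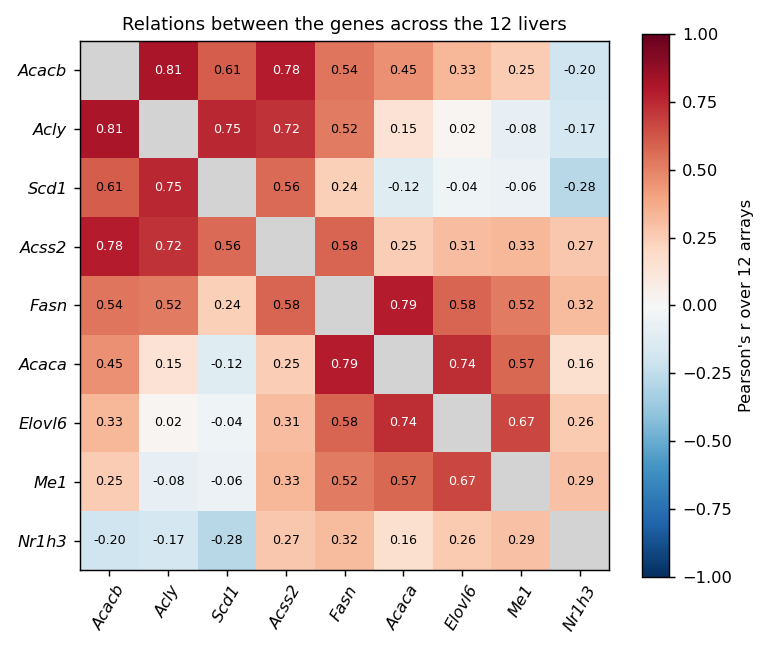
Pearson's r between each pair of genes over the 12 arrays. Pairs among Acacb, Acly, Scd1 and Acss2 have r of 0.56 to 0.81 and pairs among Fasn, Acaca, Elovl6 and Me1 have 0.52 to 0.79. Fasn also has 0.52 to 0.58 with Acly, Acacb and Acss2, and 0.24 with Scd1. Nr1h3 has -0.28 to 0.32 with all others.

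The transcripts most like Fasn were sought among 13461 named probe sets brighter than the background controls, by Pearson's r over the 12 arrays after each group's mean was taken off, as a description. They were Cfap157 with 0.91, Tmc6 with 0.88, Gpam with 0.88, Sema4g with 0.86 and Pramel32 with 0.85. Of these Gpam, the mitochondrial acyltransferase that starts glycerolipid synthesis, and Sema4g, a semaphorin, were bright in both groups. The means of Cfap157, Tmc6 and Pramel32, 5.94 to 6.20 in offspring of UCP1-KO dams and 5.90 to 6.13 in offspring of WT dams, lay below the negative control medians, which averaged 6.21 in the UCP1-KO-dam group and 6.39 in the WT-dam group. The same search for Acss2, added after its spread was seen, gave Acsf3 with 0.97, Aqp8 with 0.94, Mipep with 0.92, Slc6a12 with 0.92 and Tmx2 with 0.91. Acsf3 encodes a mitochondrial malonyl-CoA synthetase and Aqp8 a water channel. Within the groups Acsf3 followed Acss2 with r = 0.97 among offspring of UCP1-KO dams and 0.96 among offspring of WT dams. Since Acsf3 was picked for its high r on these same arrays, those values are no separate support. None of these 10 passed the comparison by dam genotype.

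Other genes of the pathway, in 6 lists, were described beside the 9. Of 56 listed genes 50 were measured and 0 passed after adjustment in limma. At an unadjusted p under 0.05, 6 were lower and 1 was higher. As a share of the 50 that is 12% lower and 2% higher, beside 6.00% and 7.08% of all probe sets. The median log2 difference over the 50 was -0.06.

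Among genes that retain, escort and cut SREBP precursors, 6 were measured and 4 lay below 0. Insig2, which holds the SREBP and SCAP complex in the endoplasmic reticulum and whose liver transcript is known to be repressed by insulin, read 10.85, 11.38 and 11.93 (lowest, median, highest) in offspring of UCP1-KO dams, against 11.78, 12.32 and 12.60 in offspring of WT dams. Of the 6 UCP1-KO-dam arrays 5 lay below all WT-dam arrays, and the log2 difference was -0.85 (95% interval -1.25 to -0.45, limma adjusted p = 0.0891). Insig2 passed in 1 of 22 alternatives, when UCP1-KO-dam array 7 was left out (adjusted p = 0.0380, up to 0.553 over the others), with differences of -0.97 to -0.75 over all of them. The escort gene Scap had -0.32 and Srebf2, which encodes the sterol-regulating SREBP-2, -0.36 (adjusted p = 0.444 and 0.391). Scap had -0.17 without UCP1-KO-dam array 8.

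Of 8 measured partners and targets of LXR 5 lay below 0, with a median log2 difference of -0.05 and 0 at an unadjusted p under 0.05 in either direction. Those 5 were Pltp with -0.33, Mylip with -0.19, Rxra with -0.14, Abcg1, also a sterol exporter gene, with -0.07 and Lpcat3 with -0.03 (limma adjusted p = 0.716 to 0.967). The other 3, the sterol exporter genes Abca1, Abcg5 and Abcg8, had differences above 0, at 0.27, 0.34 and 0.28 (limma adjusted p = 0.406, 0.609 and 0.603). Single arrays moved 2 of these: Abcg5 had 0.15 when UCP1-KO-dam array 9 was dropped and 0.18 when WT-dam array 6 was, and Abcg8 had 0.17 or 0.42 when UCP1-KO-dam array 11 or array 12 was dropped.

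Of 8 measured genes of precursor and NADPH supply 2 were lower at an unadjusted p under 0.05. These were Acss1, the mitochondrial acetyl-CoA synthetase, with a log2 difference of -0.33, and Cs, citrate synthase, with -0.38 (limma adjusted p = 0.353 and 0.362). Acss1 was dim, with means of 6.48 in offspring of UCP1-KO dams and 6.81 in offspring of WT dams. The negative control medians averaged 6.21 and 6.39 in those groups. Pdha1, a subunit of pyruvate dehydrogenase, had 0.29 (adjusted p = 0.539), and 0.14 without UCP1-KO-dam array 9. It was 0.05 once the negative controls entered the fit as a covariate, and 0.02 with WT-dam arrays 3 to 6 dropped. Of 10 measured genes of elongation and desaturation 1 was higher at that threshold: Elovl2, an elongase of polyunsaturated fatty acids, read 17.31, 17.86 and 18.11 in offspring of UCP1-KO dams, against 17.06, 17.25 and 17.75 in offspring of WT dams (log2 difference 0.45, adjusted p = 0.238). Elovl3, whose liver level is known to be sex- and clock-dependent, had -0.59 (adjusted p = 0.516), with UCP1-KO-dam array 11 lowest at 13.71 and a difference of -0.21 when it was left out. Elovl7 had -0.38 (adjusted p = 0.396), with means of 4.20 in offspring of UCP1-KO dams and 4.58 in offspring of WT dams that are under the background controls.

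Of 12 measured regulators of lipogenesis 6 lay below 0 and 2 were lower at an unadjusted p under 0.05. Mlxipl, which encodes ChREBP, read 14.15, 14.33 and 14.88 in offspring of UCP1-KO dams, against 14.66, 15.71 and 16.02 in offspring of WT dams, with 5 of the 6 UCP1-KO-dam arrays below all WT-dam arrays (limma adjusted p = 0.0891). Its log2 difference of -1.04 became -0.27 when WT-dam arrays 3 to 6 were left out, and -0.65 with the negative control median as a covariate. Mlxipl passed in 1 of 22 alternatives, leaving out WT-dam array 2 (adjusted p = 0.0235, up to 0.824 over the others). Thrsp, a small protein that promotes lipogenesis, read 12.52, 14.46 and 15.00 in offspring of UCP1-KO dams, against 13.48, 15.24 and 16.82 in offspring of WT dams (adjusted p = 0.262). Mlx, the partner of ChREBP, had a log2 difference of -0.24 (adjusted p = 0.478). In mitochondrial fatty acid synthesis all 6 measured genes lay below 0, with a median of -0.04. Acsf3 had -0.49 (adjusted p = 0.260), the reductase gene Mecr -0.30 (adjusted p = 0.477, and -0.18 without UCP1-KO-dam array 8) and the condensing enzyme gene Oxsm -0.06 (adjusted p = 0.895).

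**Figure D5:**
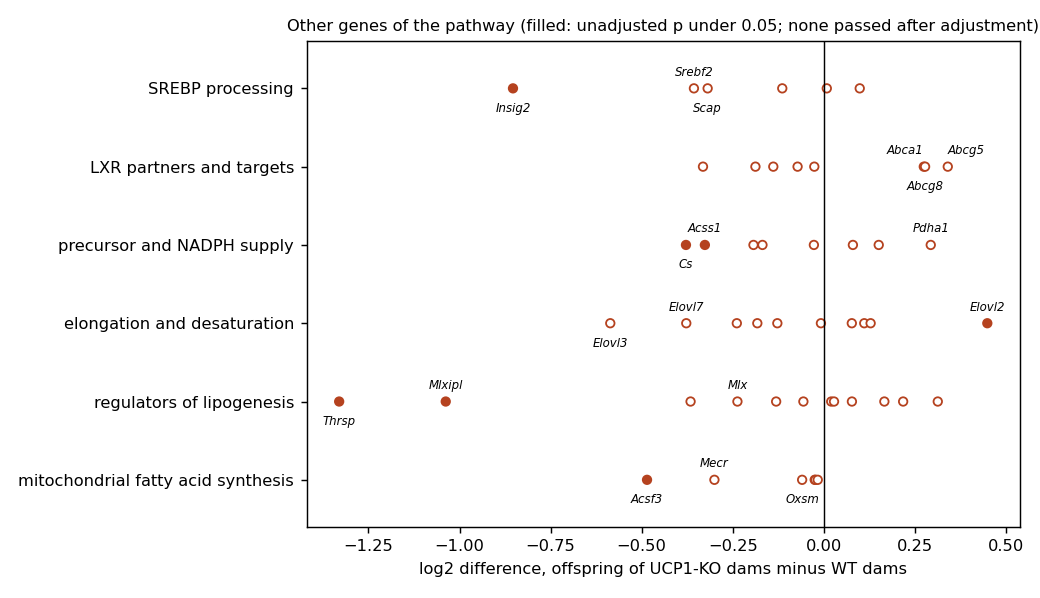
Log2 difference by dam genotype of 50 further genes in 6 lists, 1 point per gene, filled where the unadjusted p is under 0.05. The filled points are 6 left of 0 and 1, Elovl2, right of 0.

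Markers of other liver cells were set beside these values, and their part in any difference was not tested. For Kupffer cells 6 of 6 genes were measured, with array means of 9.20 to 9.95 in offspring of UCP1-KO dams and 9.08 to 10.58 in offspring of WT dams. For sinusoidal endothelium 5 of 5 were measured, with 10.41 to 10.58 in offspring of UCP1-KO dams and 10.20 to 10.58 in offspring of WT dams. That mean joined opposite differences: Stab2, a scavenger receptor gene, had -0.74 and Lyve1, a hyaluronan receptor gene, 0.94 (limma adjusted p = 0.175 and 0.191). For stellate cells 6 of 6 were measured, with 8.76 to 9.15 in offspring of UCP1-KO dams and 8.50 to 9.08 in offspring of WT dams. Bile duct genes were read for 4 of 5, with 6.03 to 6.37 in offspring of UCP1-KO dams and 6.04 to 6.41 in offspring of WT dams, and Krt19 and Epcam averaged below the background controls. The lymphocyte list (4 of 5) gave 6.05 to 6.41 in offspring of UCP1-KO dams and 5.80 to 6.43 in offspring of WT dams, with Nkg7 below background. The red cell list (2 of 4) gave 9.86 to 10.42 in offspring of UCP1-KO dams and 9.75 to 10.00 in offspring of WT dams. The muscle list (4 of 4) gave 4.30 to 4.79 in offspring of UCP1-KO dams and 4.34 to 4.67 in offspring of WT dams, and the pancreas list (4 of 5) gave 4.53 to 5.07 in offspring of UCP1-KO dams and 4.40 to 4.98 in offspring of WT dams. In these lists, hepatocyte and adipocyte genes included, 0 markers passed the limma test. At an unadjusted p under 0.05, 1 was lower (Stab2) and 3 were higher (Lyve1, the red cell gene Slc4a1 and the adipocyte gene Plin1). Of all probe sets, 6.00% were lower and 7.08% higher at that threshold. The means of Plin1, 4.43 in offspring of UCP1-KO dams and 4.15 in offspring of WT dams, are under the background controls.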

How the data were processed

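Liver RNA of 12 mice was measured on 1 array each. The deposited values are log2 signals per probe set, which the authors, per the submitters' processing notes, made with RMA and a program named Transcriptome Analysis Console. Their versions and a genome build are not given in the sources used here. RMA makes the arrays alike in distribution, so a shift of most genes one way would be reduced. Of 28846 deposited rows, 6640 controls were left out and 22206 probe sets entered the fit of limma 3.58.1 (R 4.3.3, functions lmFit and eBayes, two-sided, dam genotype as the only term, no filter), with Benjamini-Hochberg adjustment over all of them and a call at an adjusted p under 0.05. The fit was tested on simulated data. Differences are UCP1-KO dam minus WT dam. For relations between genes 100000 permutations were drawn, and array-level measures went through an exact permutation test. Srebf1 had no probe set, so the relations planned around it were computed for all pairs of the 9 genes instead. In each other list up to 3 genes of smallest p are named, with the rest of the LXR list beside them, and for Fasn the 5 most alike. Alternatives were quantile normalization, median centring, filters on dim or unnamed probe sets, averaging per symbol, a variance trend, a covariate and leaving out arrays. The genes and lists were chosen with earlier results of these data known.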

Additional observations from a re-analysis of the deposited data

Results flagged for a closer look

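Among 27 of the genes named above, in 54 groups of 6 arrays, 1 array lay far from the rest of its group by Dixon's gap criterion, which chance meets in about 1 in 20 groups. Scap, the SREBP escort gene, read 11.88 on UCP1-KO-dam array 8, where the nearest of the other 5 arrays of that group read 12.60. Its log2 difference was -0.32, and -0.17 without that array. No cause was tested.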

How the results depend on the processing

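In all 22 alternatives 0 of the 9 genes passed. The number with a difference below 0 was 7 to 9 when single arrays were left out and 6 to 8 otherwise, and the median difference was -0.41 to -0.15 and -0.36 to -0.03. Signs turned for 5 of the 9, and the cause was not tested. Without WT-dam arrays 3 to 6, Fasn had 0.20, Acaca 0.21, Acly 0.10 and Scd1 -0.022. Without UCP1-KO-dam arrays 8, 10 and 11, Scd1 had -0.035, Me1 0.16 and Acly -0.60. Acly had 0.13 when the median of the negative controls entered the fit as a covariate. Leaving out single arrays moved Acly over -0.35 to 0.16 and Scd1 over -0.0071 to 0.091. Of the 18 other pathway genes put through the alternatives, Oxsm turned sign. It had 0.027 without UCP1-KO-dam arrays 8, 10 and 11 and ran over -0.12 to 0.029 with single arrays left out. Nr1h3, Acacb, Elovl6 and Acss2 stayed below 0 in all 22. Some of the 22 altered only the other probe sets tested or the variance estimate and could not move these differences. No paired analysis was possible because the labels name no pairing between the groups. All 9 genes lay above the background controls on every array, and precision is limited by the 6 arrays per group.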
